A study of Mus musculus with 4 samples.

Results

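Acute-phase plasma proteins were followed at the level of hepatic mRNA in mice with liver injury by acetaminophen (APAP), an analgesic that causes necrosis of hepatocytes when overdosed. The genes were taken by symbol from the deposited table of read counts and comprise 10 of its 27027 entries, namely the 4 serum amyloid A genes Saa1, Saa2, Saa3 and Saa4, the 3 orosomucoid genes Orm1, Orm2 and Orm3, haptoglobin (Hp), hemopexin (Hpx) and lipocalin 2 (Lcn2). All 10 had reads in every library. They were selected by name, with earlier results of these data known.

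During the acute-phase response, cytokines such as IL-6 and IL-1 reach the hepatocyte and change which plasma proteins it secretes. IL-6 acts through gp130 and the transcription factor STAT3, IL-1 acts mainly through NF-κB, and both act together with factors of the C/EBP family. Positive acute-phase proteins increase in plasma and negative ones, among them albumin, decrease. Saa1 and Saa2 code for inducible apolipoproteins of high-density lipoprotein, Saa4 for the constitutive form, and Saa3 for a form that is also made outside hepatocytes, for instance in macrophages and adipose tissue. Orosomucoid (alpha-1-acid glycoprotein) carries basic and lipophilic drugs, haptoglobin binds free hemoglobin, hemopexin binds free heme, and lipocalin 2 binds iron-carrying bacterial siderophores and is made by hepatocytes and by maturing neutrophils.

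Hepatic RNA came from male C57BL/6J mice aged 9 to 12 weeks, which were fasted for 10 h and then injected intraperitoneally with saline (control) or with APAP at 300 mg/kg. Liver was taken after 24 h or 48 h. RNA was pooled in equal shares per condition, from 6 mice in each control pool and from 7 mice in each APAP pool. Each pool gave 1 library of massive analysis of cDNA ends (MACE), a method that sequences the 3′ end of mRNA. With 1 library per condition there is no replicate check, variation among mice is hidden, differences between pools, mice and conditions cannot be told apart, and no p-value is given. Liver RNA as a whole was measured, so fewer cells of a type and less RNA per cell cannot be told apart either.

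The libraries held 4859661 to 5698778 reads on genes. Levels are given as RPM, the reads of a gene scaled to the total of each library, and are compared between pools. Folds between pools were computed from counts divided by size factors (median of ratios), which ranged from 0.880 to 1.17. With library totals instead, every log2 fold of APAP over control is larger by 0.19 (24 h) or 0.27 (48 h), so a fold is lower than the quotient of the corresponding RPM values. Ranges in parentheses are 95% exact (Clopper-Pearson) intervals (for ratios of 2 folds, intervals on the log scale from the 4 counts) and cover counting error only. The hepatocyte markers Alb, Ttr, Apoa1, Tat, Cps1, Cyp2e1, Hnf4a and Serpina1c were all detected in every pool and summed to 79369 to 96581 RPM. For several acute-phase genes, the control pool at 24 h stood apart from the control pool at 48 h. Folds of the 10 genes that rest on this difference are therefore also given against the other control. For genes outside the 10, folds over the other control were not computed.

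The 4 Saa genes lie next to each other on chromosome 7 of GRCm38. Saa1 is at chr7:46740497-46742980 on the minus strand, Saa2 at chr7:46751790-46754313 on the plus strand, Saa3 at chr7:46711998-46715700 on the minus strand and Saa4 at chr7:46727998-46732603 on the minus strand. The Orm genes form a second cluster on the plus strand of chromosome 4, with Orm1 at chr4:63344560-63348163, Orm3 at chr4:63356162-63359511 and Orm2 at chr4:63362449-63365878. Hp is at chr8:109575128-109579172, Hpx at chr7:105591613-105600137 and Lcn2 at chr2:32384633-32388252, all on the minus strand. None of the 10 overlaps another gene of the annotation. Since MACE reads stem from 3′ ends, the last 300 bases of the transcripts were compared with all whole transcripts. Orm1 and Orm2 were identical at 97.7% of 300 aligned bases, so their reads could be exchanged in the counting, and their separate values are uncertain. Saa1 and Saa2 were identical at 93.3%, below the limit of 95% set for shared ends. One of the 2 transcripts of Saa3 has an end in common with 17 other genes, none of them from the acute-phase set.

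The promoters of 8 of the 10 genes were matched by symbol in RefSeq (GRCm38.p6). No promoter was matched for Orm1 and Hp. Each of the 8 holds, within the 250 bases before the transcription start, at least 1 match to TTGCNNAA, the core recognised by C/EBP factors, on either strand. Of 32851 mouse promoters searched in the same window, 9.56% hold it. The letters TTCNNNGAA (STAT), CTGGGAA (the type II IL-6 element) and the kappaB consensus were found in 7.02%, 9.10% and 7.25% of all promoters and in none of the 8. A match is a description of letters and not a bound site. Bases 250 to 51 before the start are shown for Saa1 (chr7:46743031-46743230, minus strand), Saa2 (chr7:46751583-46751782, plus strand), Saa3 (chr7:46715727-46715926, minus strand) and Orm2 (chr4:63362199-63362398, plus strand), because Saa1 and Saa2 moved together in the counts whereas Saa3 and Orm2 took other courses. Sequences run 5′ to 3′, and capitals mark TTGCNNAA or its reverse complement.
Saa1: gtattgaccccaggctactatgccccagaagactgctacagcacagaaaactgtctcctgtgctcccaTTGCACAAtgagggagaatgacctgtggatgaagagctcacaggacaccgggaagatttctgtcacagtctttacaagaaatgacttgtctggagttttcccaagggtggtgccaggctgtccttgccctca
Saa2: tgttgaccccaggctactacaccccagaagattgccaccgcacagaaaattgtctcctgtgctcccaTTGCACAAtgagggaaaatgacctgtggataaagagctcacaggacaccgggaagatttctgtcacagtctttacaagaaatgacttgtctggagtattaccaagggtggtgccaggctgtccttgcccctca
Saa3: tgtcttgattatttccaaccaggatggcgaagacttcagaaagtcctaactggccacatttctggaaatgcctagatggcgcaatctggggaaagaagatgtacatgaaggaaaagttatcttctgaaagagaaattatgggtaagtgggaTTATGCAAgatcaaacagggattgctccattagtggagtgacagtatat
Orm2: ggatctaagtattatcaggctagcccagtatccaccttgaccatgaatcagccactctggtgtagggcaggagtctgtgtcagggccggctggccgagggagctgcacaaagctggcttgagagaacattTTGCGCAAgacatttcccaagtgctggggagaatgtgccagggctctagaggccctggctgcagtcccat
Over the whole window of 250 bases, the promoters of Saa1 and Saa2 shared 94.8% of aligned positions, and the motif begins at position -182 from the start in Saa1 and -183 in Saa2. The promoter of Saa3 shared 48.5% with that of Saa1, and its motif lies on the opposite strand at position -99. Orm2 and Orm3 shared 85.5%, with the motif at positions -120 and -121. The matches in Saa1 and Saa2, and those in Orm2 and Orm3, are therefore not independent of each other. The count of promoters with a match is thus not read against the share of all promoters.

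Among the 10 genes, Saa1 and Saa2 were lower in the APAP pools than in the control pool of the same time, Lcn2 was higher at both times, Hp was higher at 48 h, and Saa4 and the Orm genes stayed within 1.35-fold of control (within 1.46-fold by library totals). Over the control pool of the other time, the direction reverses for Saa1 and Saa2 at 24 h and for Lcn2 at 48 h. Saa3 was abundant in a single pool, the control at 24 h. The 10 genes took 2.76% of all reads in the control pool and 2.74% in the APAP pool at 24 h. The corresponding shares at 48 h were 1.70% and 2.88%. Most of these reads belonged to Hp and Hpx, which took 1.54%, 1.69%, 1.04% and 2.26% in the same order.

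**Figure D1:**
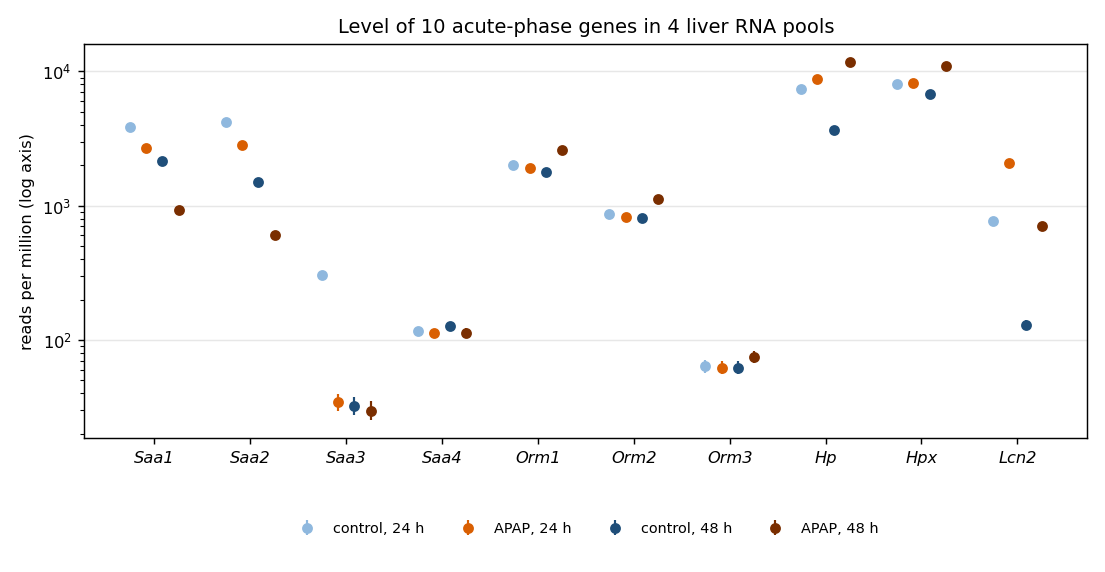
Level of each acute-phase gene in the 4 pools, in RPM on a log axis, with 95% counting intervals that are mostly smaller than the points. Saa1 and Saa2 are highest in the control pool at 24 h and lowest in the APAP pool at 48 h, Saa3 lies at 306 RPM in the control pool at 24 h and near 30 RPM elsewhere, and Saa4 and the Orm genes are nearly level.

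Saa1 was measured at 3866 RPM in the control pool and 2666 RPM in the APAP pool at 24 h, and at 2162 and 923 RPM at 48 h. Saa2 was measured at 4225 and 2809 RPM at 24 h and at 1510 and 609 RPM at 48 h. For both genes the APAP pool at 48 h was the lowest of all 4 pools and the control pool at 24 h the highest. Compared with the control of the same time, Saa1 was 1.65-fold lower (1.62 to 1.69) at 24 h and 2.82-fold lower (2.72 to 2.92) at 48 h. The corresponding values for Saa2 were 1.71-fold (1.68 to 1.75) and 2.98-fold (2.86 to 3.11). The distance from control at 48 h was greater than at 24 h, with a ratio of the folds of 0.586 (0.563 to 0.610) for Saa1 and 0.575 (0.549 to 0.602) for Saa2. At 24 h the direction depends on the control: set against the control pool at 48 h, the APAP pool at 24 h held 1.08-fold (1.05 to 1.10) more Saa1 and 1.62-fold (1.58 to 1.67) more Saa2. At 48 h both genes were lower in the APAP pool than in either control, by 2.82- and 4.998-fold for Saa1 and by 2.98- and 8.27-fold for Saa2. The summed hepatocyte markers, to which Alb contributes most, were 83369 RPM in the control pool and 96581 RPM in the APAP pool at 48 h, and 1 of the 8, Cyp2e1, was 2.71-fold lower (2.60 to 2.82) by size factors. The part of hepatocyte content in the levels of Saa1 and Saa2 was not tested.

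Within a pool, the proportion of Saa1 to Saa2 is free of scaling between libraries. Saa1 gave 0.915 reads (0.897 to 0.933) per read of Saa2 in the control pool and 0.949 (0.928 to 0.971) in the APAP pool at 24 h. The values at 48 h were 1.43 (1.39 to 1.47) in the control pool and 1.51 (1.45 to 1.59) in the APAP pool. The proportion therefore differed mainly between the time points, in the control pools as in the APAP pools, and less between control and APAP.

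Saa3 was measured with 1487 reads in the control pool at 24 h, but with 195 reads in the APAP pool of that time. At 48 h it had 168 reads in the control and 147 in the APAP pool. In RPM these are 306, 34.2, 32.4 and 29.8, so that a single pool is high and the other 3 lie close together. Relative to its control, Saa3 was 10.2-fold lower (8.76 to 11.9) in the APAP pool at 24 h, which ranks 14 from the lowest among 16095 genes tested. At 48 h it was 1.31-fold lower (1.04 to 1.64). Against the other control, the fold of the APAP pool at 24 h was 0.922 (0.746 to 1.14), an interval that includes 1, whereas the APAP pool at 48 h was 12.3-fold lower. Against both controls summed, Saa3 was 5.50-fold lower at 24 h and 6.63-fold lower at 48 h. Saa3 gave 0.0792 reads per read of Saa1 in the control pool at 24 h and 0.0128 in its APAP counterpart, and 0.0150 and 0.0323 in the control and APAP pools at 48 h. This proportion was added after the values had been seen. Markers of macrophages and monocytes, cells that can express Saa3, summed to 194 and 286 RPM in the control and APAP pools at 24 h and to 195 and 468 RPM at 48 h, with all 11 markers detected in each pool. They did not move together. At 24 h, 4 of the 11 were at least 2-fold higher, against 7.23% of all genes, and 7 differed by less. Lyz2 (3.42, 2.70 to 4.39) and Marco (3.06, 2.30 to 4.13) were higher, whereas Clec4f was lower (0.534, 0.441 to 0.645). The 4 adipocyte markers in the table summed to 11.1 and 31.1 RPM in the control and APAP pools at 24 h and to 14.3 and 31.0 RPM at 48 h. Nearly all of these reads came from Fabp4 (37, 89, 51 and 124 in the same order) and Cidec (15, 87, 23 and 28). Plin1 and Lep had 2 reads or fewer in every pool, so the sum is a weak measure of adipocytes. The part of macrophages, monocytes and adipocytes in the level of Saa3 was not tested.

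Saa4, the constitutive member of the family, was measured at 116 and 112 RPM in the control and APAP pools at 24 h and at 126 and 113 RPM at 48 h. Its folds were 0.851 (0.758 to 0.954) at 24 h and 0.743 (0.663 to 0.834) at 48 h, and the control pools differed by 1.10-fold (0.979 to 1.23). Saa4 was thus nearly level across pools in which its neighbours Saa1, Saa2 and Saa3 differed by several-fold.

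The Orm genes differed little between the pools. Orm1 was measured at 2000 RPM in the control pool and 1906 RPM in the APAP pool at 24 h, and at 1790 and 2621 RPM at 48 h. Orm2 reached 865 and 829 RPM at 24 h and 816 and 1120 RPM at 48 h. Orm3, the least abundant of the 3, reached 63.8, 62.3, 62.0 and 74.3 RPM in the same order. In RPM all 3 were highest in the APAP pool at 48 h, but in reads divided by size factors Orm3 was highest in the control pool at 24 h (352, beside 344). The folds at 24 h were 0.838 (0.815 to 0.861) for Orm1, 0.842 (0.808 to 0.878) for Orm2 and 0.858 (0.735 to 1.002) for Orm3. At 48 h they were 1.22 (1.19 to 1.25), 1.14 (1.10 to 1.19) and 0.997 (0.856 to 1.16), and library totals in place of size factors put them at 1.46, 1.37 and 1.20. Reads of Orm1 and Orm2 could be exchanged, but their sum with Orm3 gave folds of 0.839 at 24 h and 1.19 at 48 h. The number of Orm1 reads per Orm2 read was 2.31, 2.30, 2.19 and 2.34 in the control and APAP pools at 24 h and the control and APAP pools at 48 h, with intervals that all overlap.

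Haptoglobin and hemopexin, the scavengers of hemoglobin and heme, were the most abundant of the 10 genes. Hp was measured at 7375 RPM in the control pool and 8748 RPM in the APAP pool at 24 h, and at 3632 and 11676 RPM at 48 h. The control pool at 48 h was the lowest and the APAP pool at 48 h the highest. Hp differed from control by 1.04-fold (1.03 to 1.06) at 24 h and was 2.67-fold higher (2.63 to 2.72) at 48 h. The fold at 48 h was 2.57 times (2.51 to 2.62) that at 24 h. Over the control pool of the other time, the APAP pools held 2.10-fold more Hp at 24 h and 1.33-fold more at 48 h, so that Hp was higher in both APAP pools than in either control.

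Hpx was measured at 8023 and 8193 RPM at 24 h and at 6738 and 10973 RPM at 48 h. It differed from control by 0.897-fold (0.885 to 0.909) at 24 h and was 1.35-fold higher (1.34 to 1.37) at 48 h. The value at 24 h changes direction with library totals, to 1.02, and with the other control, to 1.06. Over the other control the fold at 48 h was 1.15. Hp gave 0.919 reads (0.906 to 0.932) per read of Hpx in the control pool at 24 h and 0.539 (0.529 to 0.549) in that at 48 h. The proportion reached 1.07 (1.05 to 1.08) and 1.06 (1.05 to 1.08) in the APAP pools of these times. It was equal within counting error in the 2 APAP pools and differed between the control pools. The 5 erythroid markers summed to 3653 and 2909 RPM in the control and APAP pools at 24 h and to 2470 and 1585 RPM at 48 h, and their part in the levels of Hp and Hpx was not tested.

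**Figure D2:**
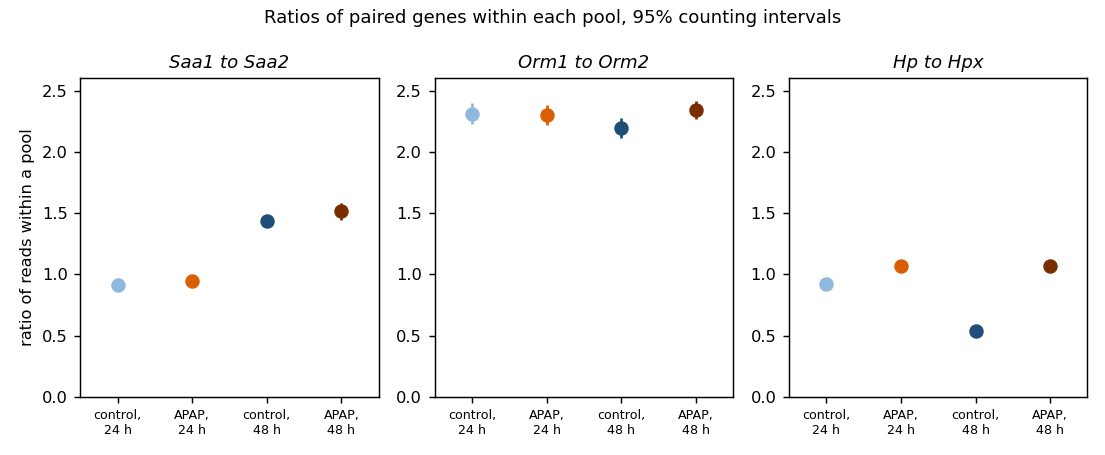
Reads of 1 gene per read of its partner within each of the 4 pools, on a linear axis from 0 with 95% counting intervals. The proportion of Saa1 to Saa2 lies near 0.9 in both pools at 24 h and near 1.5 in both pools at 48 h, that of Orm1 to Orm2 lies between 2.19 and 2.34, and that of Hp to Hpx is 0.539 in the control pool at 48 h and 0.919 to 1.07 in the other pools.

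Lcn2 was measured at 763 RPM in the control pool and 2067 RPM in the APAP pool at 24 h, and at 130 and 704 RPM at 48 h. The order of the pools was thus APAP at 24 h, control at 24 h, APAP at 48 h and control at 48 h, and the control at 24 h was higher than the APAP pool at 48 h. In relation to the control of the same time, Lcn2 was higher by 2.38-fold (2.29 to 2.47) at 24 h and by 4.51-fold (4.16 to 4.91) at 48 h, the latter ranking 106 from the highest among 16018 genes. The larger fold at 48 h came with a 3.08-fold lower (2.97 to 3.20) level in the APAP pool than at 24 h, since the control was 5.85-fold lower (5.38 to 6.35). Against the other control, the APAP pool at 24 h held 13.9-fold (12.9 to 15.1) more Lcn2, and the APAP pool at 48 h 0.772-fold (0.737 to 0.809), which reverses the direction. Against both controls summed, the folds were 4.15 and 1.35.

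Neutrophils, a further source of Lcn2, were assessed by 11 marker genes. These summed to 3.29 RPM in the control pool and 46.0 RPM in the APAP pool at 24 h, and to 3.85 and 38.7 RPM at 48 h. In the control pools, Elane, Ltf and Ngp had 0 reads. In the APAP pools, Camp was at 0 at 24 h, and Elane, Ngp and Cxcr2 were at 0 at 48 h. Relative to the control of the same time, the summed markers and Lcn2 were both higher after APAP. Between the controls the markers were close, at 3.29 and 3.85 RPM, whereas Lcn2 was at 763 (24 h) and 130 RPM (48 h). S100a8 and S100a9 had the most marker reads after APAP, 139 and 75 at 24 h, then 106 and 38 at 48 h. Elane, Ngp, Camp and Ltf had 3 reads or fewer in every pool. The part of neutrophils in the folds of Lcn2 was not tested. The sums in the control pools rest on 16 and 20 reads. Ly6g and Mpo were not analysed here. Markers of cholangiocytes, stellate cells and endothelium summed to 26.3 to 82.8, 75.3 to 183 and 116 to 164 RPM over the 4 pools.

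Taking a 2-fold difference from the control of the same time as a threshold, 1 of the 10 genes was higher (Lcn2) and 1 lower (Saa3) at 24 h. Of all 16095 genes tested (more than 3 reads in either pool), 7.23% were higher and 8.47% lower at this threshold. At the 5-fold threshold that the study used, Saa3 was lower and none of the 10 was higher at 24 h, against 0.634% and 0.795% of all genes. At 48 h, Hp and Lcn2 were at least 2-fold higher and Saa1 and Saa2 at least 2-fold lower. The background of 16018 genes was 8.51% higher and 7.10% lower. No gene of the 10 reached 5-fold at 48 h in either direction, against 0.474% higher and 0.680% lower of all genes. The median log2 fold of the 10 genes was -0.24 at 24 h and 0.09 at 48 h, beside 0.02 and 0.02 for all genes tested. At 2-fold, the counts at 24 h lie close to the background in both directions, and those at 48 h are split evenly between higher and lower. The 24 h and 48 h folds differed by at least 2 times, with an interval without 1, for Saa3 (ratio 7.79, 5.96 to 10.2) and Hp (2.57), both of them larger at 48 h. Of 10819 genes with at least 10 reads in every pool, 6.26% differed between the times by this rule, in either direction.

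**Figure D3:**
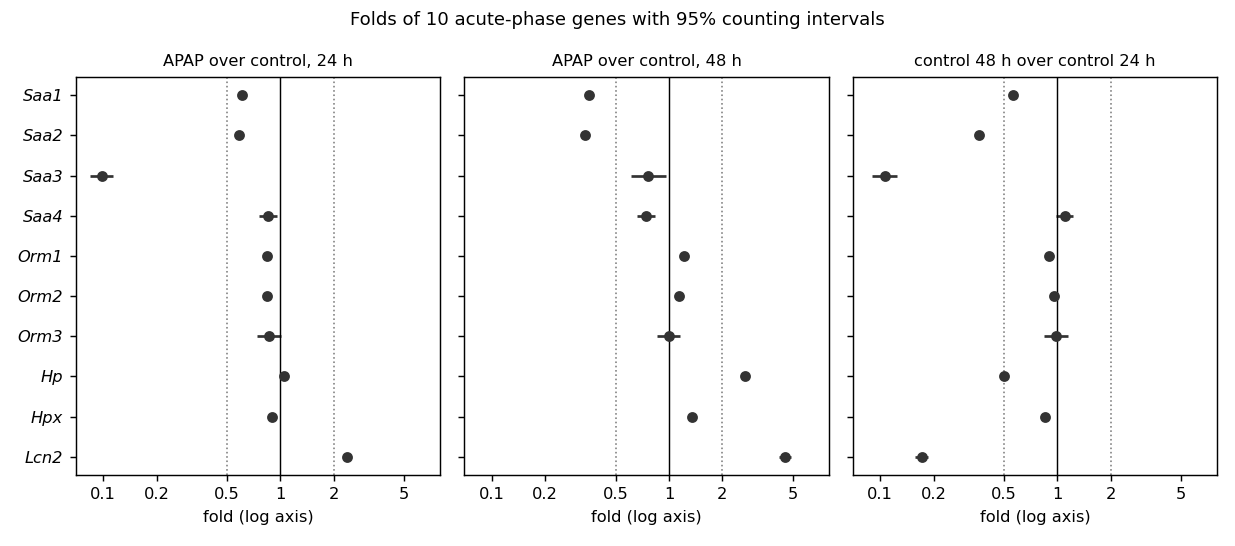
Fold of each acute-phase gene on a log axis with 95% counting intervals, for APAP over control at 24 h, APAP over control at 48 h and control at 48 h over control at 24 h, with dotted lines at 0.5 and 2. Lcn2 is above 2 in both APAP comparisons, Saa1 and Saa2 are below 0.5 at 48 h, and Saa2, Saa3, Hp and Lcn2 are below 0.5 between the controls.

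The control pools, neither of which had received APAP, differed from each other in several of these genes. In the pool at 48 h, Saa3 was 9.38-fold lower (7.996 to 11.1) than in the pool at 24 h, ranking 3 from the lowest among 15459 genes, and Lcn2, which was 5.85-fold lower, ranked 9 from the lowest. Saa2 was 2.78-fold lower (2.71 to 2.85), Hp 2.02-fold lower (1.98 to 2.05) and Saa1 1.77-fold lower (1.73 to 1.82). In contrast, Saa4, the Orm genes and Hpx differed by 0.846- to 1.10-fold. In total, 4 of the 10 genes were at least 2-fold lower and 2 at least 5-fold lower in the control at 48 h, against 4.89% and 0.0970% of all genes, and none was higher by these thresholds, against 4.43% and 0.0970%. Hp lies at the threshold, and with TMM normalization its fold is 0.507 and 3 genes pass 2-fold. The median log2 fold between the controls was -0.53 for the 10 genes and 0.01 for all genes. The comparison at 24 h and that between the controls use the same control pool at 24 h, so their values are not independent of each other.

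**Figure D4:**
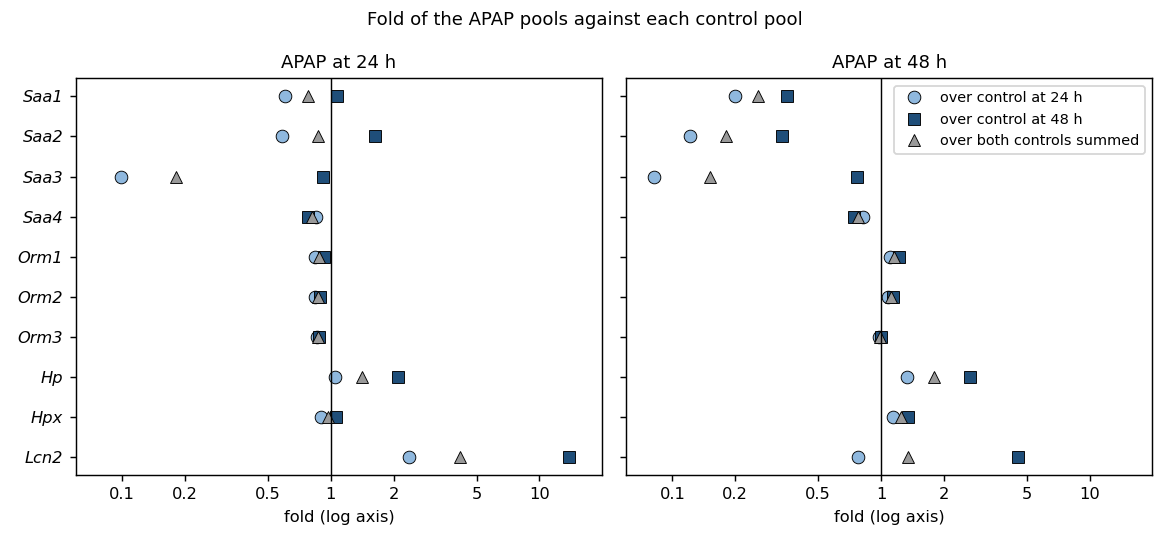
Fold of the APAP pools at 24 h (left) and 48 h (right) on a log axis, over the control pool at 24 h (circles), the control pool at 48 h (squares) and both controls summed (triangles). For Saa4 and the Orm genes the 3 symbols nearly coincide, whereas for Saa3 they span 0.0982 to 0.922 and for Lcn2 2.38 to 13.9 at 24 h.

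Between the APAP pools, Saa1 and Saa2 were 3.03-fold (2.93 to 3.13) and 4.83-fold (4.65 to 5.03) lower at 48 h than at 24 h. Together with Lcn2 they are the 3 of 10 genes at least 2-fold lower, against 4.97% of all 16358 genes, and no gene of the 10 was at least 2-fold higher, against 5.91%. None differed by 5-fold or more, against 0.128% higher and 0.391% lower of all genes. Orm1, Orm2, Hp and Hpx were 1.27- to 1.31-fold higher in the APAP pool at 48 h than in that at 24 h. Saa3 (0.830, 0.665 to 1.03), Saa4 (0.959, 0.855 to 1.08) and Orm3 (1.14, 0.981 to 1.32) had intervals that include 1.

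A separate list held other positive acute-phase genes. Of its 18 genes, 10 were at least 2-fold higher and 1, Cfb, lower at 24 h, and the median was 1.15 on the log2 scale. Of all genes tested, 7.23% were higher and 8.47% lower, with a median of 0.02. At 48 h, 8 were higher and none lower, with a median of 0.75, against 8.51% and 7.10% of all genes and a median of 0.02. Between the controls 1 was higher (Cd14) and none lower, with a median of -0.16, against 4.43% and 4.89% of all genes and a median of 0.01. Of the 18, 6 had a fold above 1 between the controls. Serpina3n (0.510, 0.483 to 0.538), Lrg1 (0.575, 0.554 to 0.597) and Itih4 (0.642, 0.623 to 0.662) were lower in the control at 48 h without reaching 2-fold. These 3 were named after their values had been seen. The counts at 48 h thus rest on the control of that time. Apcs, which codes for serum amyloid P component, had 1293 and 4769 reads in the control and APAP pools at 24 h and 822 and 3802 reads at 48 h, giving folds of 2.76 (2.60 to 2.94) and 4.04 (3.75 to 4.37). The lipopolysaccharide co-receptor Cd14 had 5 and 77 reads at 24 h and 16 and 38 reads at 48 h, with folds of 11.5 (4.74 to 36.5) and 2.08 (1.13 to 3.99). The control at 48 h over that at 24 h had a fold of 0.600 (0.549 to 0.655) for Apcs and 3.02 (1.06 to 10.5) for Cd14. The size of their folds therefore depends on the control. Hamp, coding for the iron hormone hepcidin, was higher by 1.94-fold (1.88 to 2.00) at 24 h and by 2.90-fold (2.82 to 2.99) at 48 h. The fibrinogen chains were higher mainly at 24 h, with folds of 2.82 (2.76 to 2.88) for Fga and 2.70 (2.65 to 2.76) for Fgb, and of 1.46 and 1.34 at 48 h. Il1rn, the interleukin-1 receptor antagonist, had only 5 to 22 reads and a fold of 3.85 (1.42 to 13.0) at 48 h. The fold of Cfb, complement factor B, rests on 45 and 30 reads and is 0.499 (0.304 to 0.810).

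Of the negative acute-phase genes, 7 were tested. Only Serpina6, which codes for corticosteroid-binding globulin, was at least 2-fold lower, with 604 reads in the control and 84 in the APAP pool at 24 h (646 and 222 at 48 h). Its folds were 0.104 (0.0819 to 0.131) and 0.301 (0.257 to 0.351), and the controls differed by 1.01-fold (0.901 to 1.13). Albumin (Alb), the most abundant plasma protein, had folds of 0.873 at 24 h and 0.989 at 48 h. The list was split. Ahsg was higher at both times, with folds of 1.37 and 1.43. Apoa1 had folds of 1.17 and 0.968, and Ttr of 0.561 and 1.06. Rbp4 (0.806 and 0.753) and Fetub (0.823 and 0.827) were lower at both times. These genes were named after their values had been seen. The list had medians of -0.28 and -0.05, beside 0.02 and 0.02 for all genes tested. Of all genes, 8.47% were at least 2-fold lower at 24 h and 7.10% at 48 h.

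**Figure D5:**
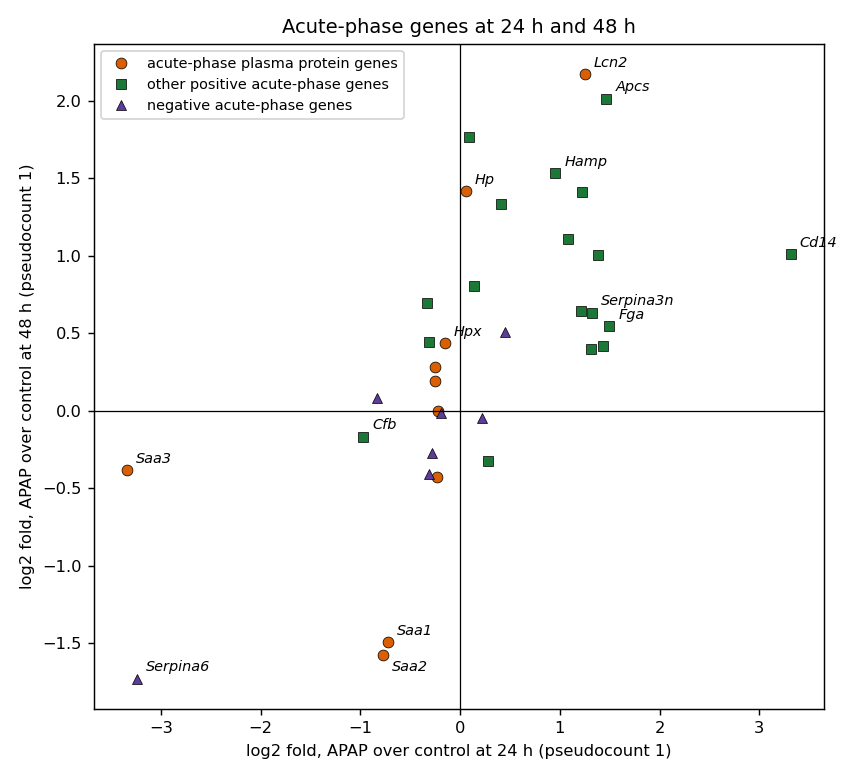
Log2 fold of APAP over control at 24 h (horizontal axis) and at 48 h (vertical axis) for the 10 acute-phase plasma protein genes (circles), 18 other positive acute-phase genes (squares) and 7 negative acute-phase genes (triangles), on counts divided by size factors with a pseudocount of 1. Most squares lie above 0 on both axes, whereas the 4 Saa genes lie below 0 on both.

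Genes that transmit the acute-phase signal were described from a list of cytokines, receptors and transcription factors, of which 22 were tested. At 24 h, 6 were at least 2-fold higher and none lower, and at 48 h 5 were higher and none lower, with medians of 0.48 and 0.41 on the log2 scale. Of all genes tested, 7.23% were higher and 8.47% lower at 24 h. The shares at 48 h were 8.51% and 7.10%, and the medians were 0.02 and 0.02. Between the controls the median was 0.01, and 1 gene (Osmr) was lower, on 8 and 4 reads, against 4.89% of all genes. Socs3, the feedback inhibitor of STAT3 signalling, had 11 reads in the control and 138 in the APAP pool at 24 h, and 17 and 49 reads at 48 h. Its folds were 9.40 (5.09 to 19.3) and 2.52 (1.43 to 4.67). Cebpd, a C/EBP factor, behaved alike with 11 and 141 reads at 24 h and 21 and 73 at 48 h, giving 9.60-fold (5.21 to 19.7) and 3.04-fold (1.85 to 5.20). Cebpb was higher by 2.06-fold (1.83 to 2.31) at 24 h and by 1.37-fold (1.20 to 1.57) at 48 h, and Stat3 by 1.97-fold (1.65 to 2.36) and 1.50-fold (1.26 to 1.81). The interleukin-1 receptor gene Il1r1 was 4.61-fold higher (3.35 to 6.50) at 24 h, the oncostatin M receptor gene Osmr 3.37-fold (1.54 to 8.40), and Nfkbiz, an atypical inhibitor of NF-κB, 2.997-fold (1.65 to 5.83). Il10rb, a receptor subunit for IL-10 and IL-22, was 2.74-fold higher (1.51 to 5.28) at 48 h. Its fold of the control at 48 h over that at 24 h was 0.643 (0.310 to 1.30). Socs3 and Cebpd were thus higher in both APAP pools, in which Saa1 and Saa2 were lower than in the control of the same time. Of the 22 genes, 15 had a fold above 1 at 24 h and 18 at 48 h. Several of these folds have intervals that include 1. The share of all genes with a fold above 1 was not computed, so these counts are not read as a rise of the list. Cebpa, a further C/EBP factor, was lower, with folds of 0.561 (0.503 to 0.624) at 24 h and 0.637 (0.578 to 0.702) at 48 h. Il1rap had folds of 0.507 (0.441 to 0.582) and 0.547 (0.477 to 0.626), and Lifr of 0.743 (0.619 to 0.891) and 0.630 (0.519 to 0.764). Cebpa, Il1rap and Lifr were named after their values had been seen. Il6 was not analysed here.

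Receptors and heme-handling enzymes downstream of the 10 proteins formed a list of 13 genes, of which 2 were at least 2-fold higher at each time and none lower, with medians of 0.51 and 0.25. Of all genes tested, 7.23% were higher at 24 h and 8.51% at 48 h. No set test was run, and counts this small are not read as a difference from these shares. Hmox1, the heme oxygenase that degrades heme, had 75 and 224 reads at 24 h and 66 and 176 reads at 48 h, and folds of 2.24 (1.72 to 2.95) and 2.33 (1.75 to 3.14). Slc48a1, a heme transporter, was 2.03-fold higher (1.74 to 2.39) at 24 h. The second gene counted at 48 h, the receptor Fpr2, rests on 3 and 8 reads with an interval that includes 1. Cd163, the macrophage receptor for haptoglobin bound to hemoglobin, had 20 and 41 reads at 24 h and 20 and 31 at 48 h, and the intervals of its folds include 1. It was named after its values had been seen.

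The genes with the most similar pair of folds were sought among the 4398 genes whose mean over the pools reached 100 normalized reads, by the distance between log2 folds at 24 h and 48 h. Among the nearest to Saa1 were Cyp2e1, the cytochrome that oxidises APAP, Gstt1, a glutathione transferase, and Decr2, a peroxisomal reductase of fatty acid oxidation, at distances of 0.07 to 0.13 log2 units. Saa1 had 18786 and 11226 reads in the control pools at 24 h and 48 h, whereas Cyp2e1 had 6910 and 7614. Nearest to Lcn2 were Pkm, Flna, Enho, Apcs and Tagln, at distances of 0.13 to 0.32. Of these, Pkm (pyruvate kinase) had 88 and 76 reads in the control pools at 24 h and 48 h, whereas Lcn2 had 3710 and 673. The likeness covers 2 folds from 4 pools and is a description of these libraries.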

How the data were processed

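Hepatic RNA of 4 pools was analysed, with 1 MACE library per pool. The authors digested RNA with DNase, prepared 3′ libraries, removed duplicates by unique molecular identifiers, removed poly(A)-tails and low-quality bases (cutadapt), aligned to mm10 and deposited raw read counts per gene from HTSeq. The aligner, tool versions and the treatment of reads matching several genes are not given in the sources used here. Per the labels the mice are C57BL/6. The deposited table also holds RPM values, log2 ratios, p-values and FDR values computed by the authors, which were not used.

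Counts were divided by size factors (DESeq2 1.42.0, R 4.3.3). A count of 3 or fewer in a pool was set to 3, and genes with more than 3 reads in either pool of a comparison were tested against thresholds of 2-fold and 5-fold. A pseudocount of 1 normalized read was used for medians. Intervals were computed in Python 3.11.15 with scipy 1.17.1. The 2-fold calls and the intervals of single folds were tested on simulated counts for APAP over control at 24 h. The other steps were not tested in this way. No test between conditions was run, since each group has 1 library.

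Gene models came from GENCODE mouse release 21 (GRCm38). Ends of transcripts were compared with whole transcripts by blastn 2.17.0 and called shared from 95% identity over 100 bases upward. Members and gene lists were chosen with earlier results of these data known. Beyond the 10 members, genes at least 2-fold changed with an interval without 1 were named (at most 6 per list), plus Il6, Stat3, Socs3, Cebpb, Alb and Hmox1, and the 5 genes nearest to Saa1 and to Lcn2, some of which are not reported here. Alternatives were TMM (edgeR 4.0.16), library totals, the other or the summed controls, other floors and pseudocounts, at least 20 reads, and summed families.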

Additional observations from a re-analysis of the deposited data

Results flagged for a closer look

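For 2 genes the fold of APAP over control differed at least 2 times between the time points, with an interval without 1. Smaller differences beyond counting error were also found, for instance for Saa1 (ratio 0.586, 0.563 to 0.610) and Lcn2 (1.90, 1.73 to 2.08). For Saa3 the fold of APAP over control at 48 h was 7.79 times (5.96 to 10.2) the fold at 24 h, being 0.0982 at 24 h and 0.765 at 48 h. For Hp the fold at 48 h was 2.57 times (2.51 to 2.62) that at 24 h, being 1.04 and 2.67. Both were picked out because the ratio of the folds was at least 2 with an interval without 1. The control pools enter both ratios, and in the control pool at 48 h Saa3 was 9.38-fold and Hp 2.02-fold lower than in that at 24 h, whereas between the APAP pools Saa3 had a fold of 0.830 and Hp of 1.27. With library totals the ratio for Hp was 2.71, and Lcn2 also passed the rule with a ratio of 2.00. Whether the difference belongs to the time point, the pool or the mice cannot be told apart.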

How the results depend on the processing

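Of 382 values recomputed under an alternative, 296 were classed as the same, 80 as moved and 6 as reversed. Of the 200 single folds and ratios among them, 131 stayed within their counting interval. Counts of genes were allowed a tolerance, so that 4 and 3 genes lower between the controls were classed as the same. Against the other control pool, the folds at 24 h reversed to 1.08 for Saa1, 1.62 for Saa2 and 1.06 for Hpx, and the fold of Lcn2 at 48 h reversed to 0.772. Library totals reversed Hpx at 24 h to 1.02 and the median log2 fold of the negative acute-phase genes at 48 h to 0.22. With the other control, members passing 2-fold at 24 h numbered 2 higher and 0 lower, and 1 and 0 passed 5-fold. At 48 h, 0 were at least 2-fold higher and 2 at least 5-fold lower. The summed controls gave 0 and 2 at 48 h likewise. Library totals put 1 gene, Lcn2, at least 5-fold higher at 48 h (5.43), and moved the median of the other positive acute-phase genes to 1.33 at 24 h and 1.02 at 48 h and that of the negative genes at 24 h to -0.094. TMM moved the latter to -0.26, and to 0.054 between the controls. Cfb was no longer counted as 2-fold lower with TMM or library totals, which leaves 0 genes lower. The cause of these shifts was not tested. Leaving out a replicate was not possible with 1 library per group. No paired analysis was possible because each group has 1 library. Depth limits Il1rn, Osmr, Fpr2 and Cd163, with 41 reads or fewer in every pool. It also limits Cd14, Socs3, Cebpd and Nfkbiz, with 5, 11, 11 and 14 reads in the control pool at 24 h.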
